A study of Mus musculus with 6 samples.

Results

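Intergenic NRF2 peaks near genes were taken from 4 annotated lists of NRF2 binding sites in mouse embryonic fibroblasts. They are the peaks that the deposited annotation placed in intergenic DNA, at 50 kb or less from the nearest transcription start site (TSS), and whose detailed annotation named no repeat element. The rule kept 2523 of 16057 peaks. It used position and annotation only, and no measure of binding strength.

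The fibroblasts came from the 129S6/SvEvTac strain. They either lacked GCN2 (knockout, KO) or were wild type (WT), and each genotype was kept for 24 h in DMEM without leucine (leucine-free) or in complete DMEM (complete-medium). The groups were thus leucine-free KO cells, complete-medium KO cells, leucine-free WT cells and complete-medium WT cells, with 1 NRF2 library and 1 peak list each. Of the 6 samples, the other 2 are input libraries, 1 per genotype, both from complete medium, so the libraries without leucine have no input of their own medium. The labels do not say which allele of Eif2ak4 was deleted or how many cell lines or embryos the fibroblasts came from. A peak list measures neither gene disruption nor expression, so neither the knockout nor the cell type could be checked. Without replicates no difference between lists has a test, and the 95% intervals below are exact Clopper-Pearson intervals that cover counting error only.

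NRF2, encoded by Nfe2l2, is a transcription factor of the cap'n'collar family that pairs with small Maf proteins and binds antioxidant response elements. It is held at low levels by KEAP1 and, when cells meet oxidants or electrophiles, switches on genes for glutathione synthesis, detoxification, iron storage and heme breakdown. Many of its elements lie some distance upstream of the gene they serve, as at Hmox1. GCN2, encoded by Eif2ak4, is a kinase that senses uncharged tRNA and starts the integrated stress response when an amino acid such as leucine is missing.

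The first sequences shown are from near-gene intergenic sites with a peak in every list whose window overlapped a RefSeq promoter. Such a promoter runs from 250 bases before to 50 bases after each gene start. There were 4 such sites, of which 3 are shown. Each of the 3 overlaps the promoter of a long non-coding RNA gene that is not the gene named by the deposited annotation. At the Gpi1 site the windows end before the start of that RNA gene. The stretches below are the parts of the RefSeq promoter that fell inside the widest-overlapping window, in mm10 coordinates and on the strand of the RNA, and capitals mark TGACTCAGC, an antioxidant response element that also contains an AP-1 element.
Gm7008 site, start of Gm40403, chr12:40248087-40248318, minus strand: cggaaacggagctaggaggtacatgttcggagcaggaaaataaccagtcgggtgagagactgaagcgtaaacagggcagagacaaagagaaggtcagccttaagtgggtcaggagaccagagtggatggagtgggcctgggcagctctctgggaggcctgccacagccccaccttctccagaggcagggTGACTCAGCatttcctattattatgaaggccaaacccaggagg
Gpi1 site, start of Gm12758, chr7:34234127-34234268, plus strand: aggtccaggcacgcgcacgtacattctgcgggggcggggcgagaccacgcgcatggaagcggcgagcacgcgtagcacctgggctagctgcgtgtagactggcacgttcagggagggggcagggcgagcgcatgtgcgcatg
Slc25a33 site, start of Gm13073, chr4:149780888-149781056, minus strand: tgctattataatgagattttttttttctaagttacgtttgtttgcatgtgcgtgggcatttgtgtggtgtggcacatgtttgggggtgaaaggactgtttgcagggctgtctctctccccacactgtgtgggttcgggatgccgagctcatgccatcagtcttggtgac

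The Gm7008 stretch held TGACTCAGC once, and the Gpi1 and Slc25a33 stretches held none of the 3 motifs searched. In the Gm7008 site the motif, at chr12:40248121-40248129, lay 39 bp from the centre of the window in leucine-free KO cells, 21 bp in complete-medium KO cells, 9 bp in leucine-free WT cells and 43 bp in complete-medium WT cells. The motif was thus in the middle part of each of these 300 bp windows. All promoters overlapped by a near-gene intergenic peak numbered 32. Over the whole promoter and on both strands, TGACTCAGC was in 2 of the 32 (6.25%), the looser core TGACNNNGC, which includes it, in 6 (18.8%), and the AP-1 element TGANTCA, which overlaps it, in 4 (12.5%). Among all 32851 RefSeq promoters, searched over the same length, these motifs were in 0.454%, 12.4% and 7.81%. Some of the promoters overlap each other where a gene has several starts, and a match is not a measured binding site.

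The near-gene intergenic peaks made up a like share of each list. They numbered 713 of 4600 peaks in leucine-free KO cells (15.5%, interval 14.5 to 16.6%), 472 of 3141 in complete-medium KO cells (15%, 13.8 to 16.3%), 960 of 5980 in leucine-free WT cells (16.1%, 15.1 to 17.0%) and 378 of 2336 in complete-medium WT cells (16.2%, 14.7 to 17.7%). The intervals of all 4 lists overlap, so the larger number of these peaks without leucine went with longer lists. Read depth is unknown, and how far it set the length of a list was not tested. Before the repeat filter the lists held 1152, 729, 1414 and 570 intergenic peaks within 50 kb, of which 439, 257, 454 and 192 were annotated to a repeat.

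The peaks lay mostly upstream of the gene they were assigned to. Upstream positions took 497 of 713 in leucine-free KO cells (69.7%, 66.2 to 73.1%), 342 of 472 in complete-medium KO cells (72.5%, 68.2 to 76.4%), 685 of 960 in leucine-free WT cells (71.4%, 68.4 to 74.2%) and 276 of 378 in complete-medium WT cells (73.0%, 68.2 to 77.4%). The median distance from the TSS was 18656, 17174, 17526 and 18622 bp in the same order, and the nearest peak of any list lay 1002 bp away. Peaks within 10 kb made up 29.7%, 32.8%, 30.7% and 32.3% of the group, and 84.4%, 86.5%, 88.8% and 91.8% of those were upstream. At 40 to 50 kb the upstream shares were 60%, 64.4%, 57.9% and 61.7%. Among intergenic peaks beyond 50 kb and outside repeats they were 53.0%, 50.2%, 49.6% and 48.7%. The excess of upstream positions was thus largest near the TSS. A window a short way downstream of a TSS usually lies inside that gene and is then not intergenic, so the rule itself removes downstream positions close to genes.

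**Figure D1:**
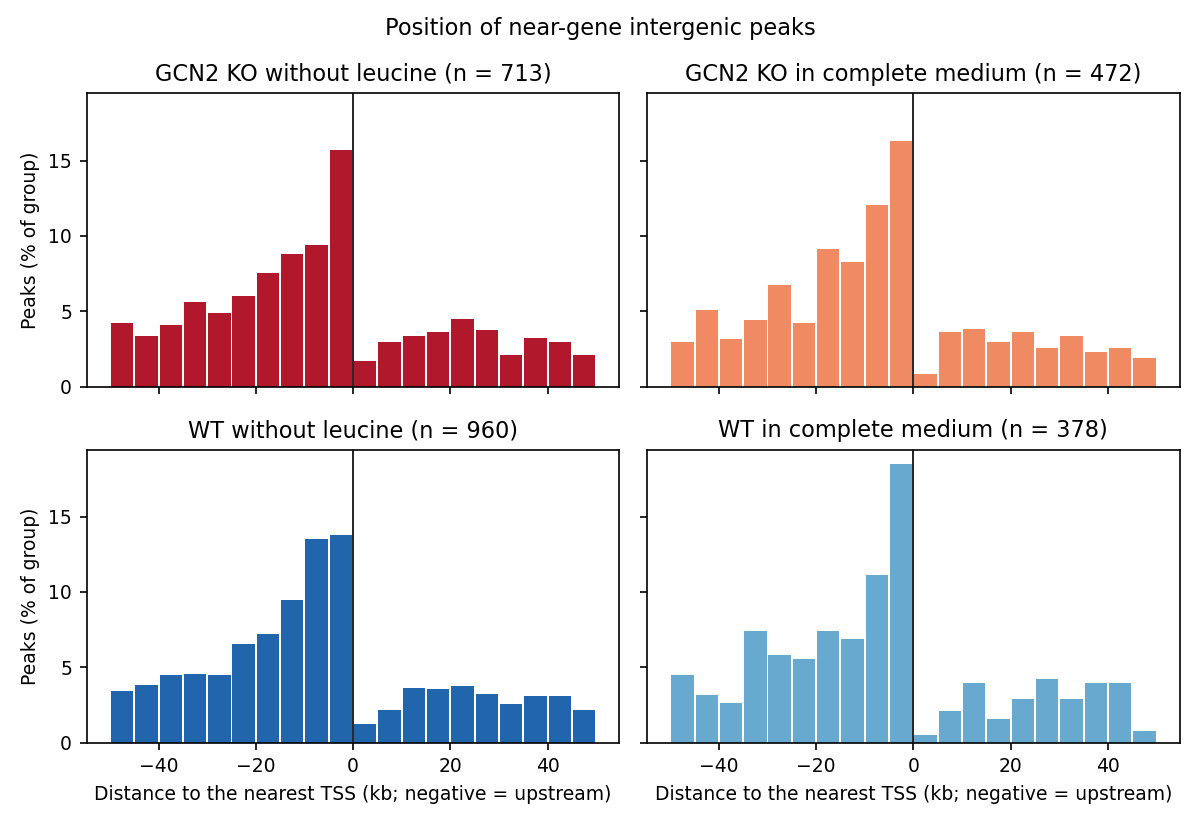
Share of the near-gene intergenic peaks of each list (y axis, %) by distance to the nearest TSS in bins of 5 kb (x axis, negative values upstream). In all 4 panels the tallest bar is the bin directly upstream of the TSS, and 69.7% to 73.0% of the peaks lie left of 0.

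At the limit of 50 kb the group has no natural edge. The outermost peaks kept were at 49679 bp from Foxo6 in leucine-free KO cells, 49804 bp from Pla2g4b in complete-medium KO cells, 49816 bp from Asb1 in leucine-free WT cells and -49617 bp from Slc5a3 in complete-medium WT cells. The nearest left out lay at -50085 bp from Esrrg, 50080 bp from Foxo6, -50123 bp from Zdhhc25 and 50549 bp from Zdhhc25. The last 5 kb inside the limit held 45, 23, 54 and 20 peaks, and the next 5 kb beyond it held 42, 16, 48 and 23.

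The words intergenic and nearest gene hold only for the deposited annotation. In the RefSeq annotation of GRCm38.p6, the assembly that mm10 is built on, 618 of the 2523 peaks (24.5%) lay inside a gene body. Of these, 351 (13.9% of all) were in a body of a long non-coding RNA gene and 256 (10.1%) in that of a protein-coding gene. For 2442 peaks on chromosomes of that table, 76 (3.11%) lay within 1 kb of a RefSeq TSS, 530 (21.7%) had no protein-coding TSS within 50 kb and 830 (34.0%) had 2 or more. The assigned gene is therefore a label for the position in many cases, and no expression was measured that could tie a peak to a gene.

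The group named 665 nearest genes in leucine-free KO cells, 446 in complete-medium KO cells, 880 in leucine-free WT cells and 359 in complete-medium WT cells. Protein-coding genes were the nearest gene of 81.6%, 82.0%, 84.5% and 83.3% of the peaks, and non-coding RNA genes of 16.5%, 16.3%, 13.6% and 14.6%. Most genes had a single peak of the group, and 5, 1, 5 and 1 genes had 3 or more. The pseudogene Pisd-ps3, on the unplaced contig JH584304, had 7, 5, 6 and 5. That contig held 0.982%, 1.06%, 0.625% and 1.32% of the group against 0.239%, 0.223%, 0.184% and 0.342% of all peaks. The other genes with 3 or more peaks were Acsf3, Mir7218, Tas1r2 and Xpa in leucine-free KO cells, and 1700109G15Rik, Myh9, Tfap2c and C330006A16Rik in leucine-free WT cells. Of the 1822 genes named in any list, 1464 were named in 1 list, 244 in 2, 58 in 3 and 56 in all 4. No counts over all peaks are set beside these.

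GC content stood between that of distant intergenic peaks and that of promoter peaks. Its median was 52.2% in leucine-free KO cells (quartiles 49.5 and 54.8%), 52.5% in complete-medium KO cells (49.8 and 54.8%), 52.2% in leucine-free WT cells (49.8 and 54.6%) and 51.8% in complete-medium WT cells (49.2 and 54.2%). Intergenic peaks beyond 50 kb had medians of 51.2%, 51%, 51% and 50.5%, near-gene intergenic peaks in repeats 50.8%, 50.5%, 50.5% and 50.2%, and peaks in first introns 52.8%, 53.2%, 52.8% and 52.5%. Promoter peaks had 54.8%, 55.5%, 56.8% and 56.5%. The differences among the classes other than promoters are small beside the spread between quartiles within a class.

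**Figure D2:**
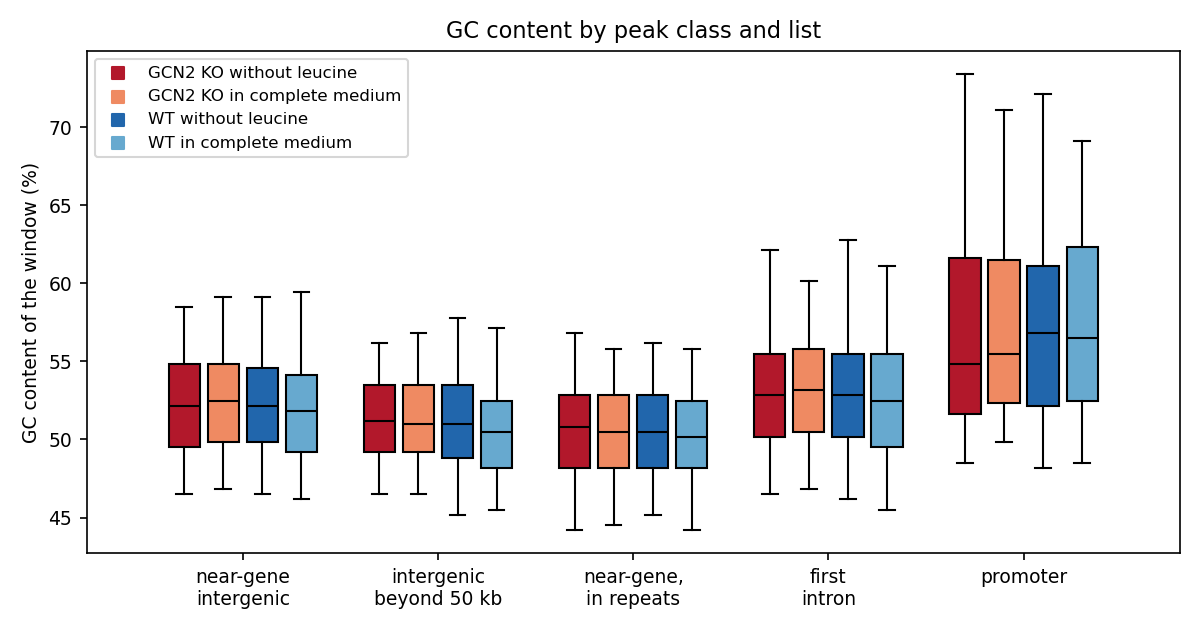
GC content of the peak windows (y axis, %) for 5 annotation classes and 4 lists. Boxes run from the lower to the upper quartile with the median as a line, and whiskers reach the lowest and highest 5%. The near-gene intergenic medians of 51.8% to 52.5% lie below the promoter medians of 54.8% to 56.8%.

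A few windows broke this pattern. Windows annotated to a CpG island numbered 6, 3, 11 and 5, and the sites near Gclc, Gpi1 and Setd1b were among them in every list. Gclc encodes the catalytic subunit of the enzyme that limits glutathione synthesis, Gpi1 a glycolytic isomerase and Setd1b a histone H3 lysine 4 methyltransferase. The GC content of the Gclc window was 71.1%, 72.8%, 74.1% and 71.4%. A CpG-island site near Rpp21, which encodes a ribonuclease P subunit, had 73.4% in the 3 lists other than complete-medium KO cells. The lowest GC content among sites of all lists was at Emc7, with 40.5%, 40.5%, 41.2% and 39.5%.

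The score of a peak is the authors' own value and was used only to rank peaks within a list, with rank 1 the highest and ties sharing their mean rank. As a percentage of the list, the median rank of the group was 47.3 in leucine-free KO cells, 45.0 in complete-medium KO cells, 50.4 in leucine-free WT cells and 46.9 in complete-medium WT cells, close to the middle of each list. At the top the group took a larger share. The best-scoring 10% of each list held 89 of the 713 peaks (12.5%, 10.1 to 15.1%), 70 of 472 (14.8%, 11.7 to 18.4%), 113 of 960 (11.8%, 9.80 to 14.0%) and 53 of 378 (14.0%, 10.7 to 17.9%). Among all other peaks of the lists the shares were 9.65% (8.74 to 10.6%), 8.99% (7.93 to 10.1%), 9.38% (8.59 to 10.2%) and 9.19% (7.95 to 10.6%). The group's share was the higher one in every list. Its interval overlapped that of the other peaks in both leucine-free lists and barely cleared it in complete-medium WT cells (10.7 against 10.6%). Such intervals cover counting error only, and no contrast between media was tested. Intergenic peaks beyond 50 kb had 8.36%, 7.89%, 9.63% and 8.33% in that top part, and first-intron peaks 12.1%, 16.2%, 10.9% and 14.4%, so the higher share is not particular to intergenic positions near genes.

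Recurrence, meaning overlap of at least 1 bp with a peak of another list, covered a minority of the group. It was seen for 115 of 713 peaks in leucine-free KO cells (16.1%, 13.5 to 19%, beside 14.0% of all peaks of that list), 122 of 472 in complete-medium KO cells (25.8%, 22.0 to 30.0%, beside 18.4%), 147 of 960 in leucine-free WT cells (15.3%, 13.1 to 17.7%, beside 12.6%) and 125 of 378 in complete-medium WT cells (33.1%, 28.3 to 38.1%, beside 27.0%). The share was higher in the shorter lists, which had longer lists to be matched with. With every list shortened to its 2336 best-scoring peaks, the group's shares were 28.3%, 32.3%, 34.8% and 31.0%, beside 22.9%, 21.4%, 27.1% and 25.2% of all peaks, so the order of the lists was not kept. In the full lists, among intergenic peaks beyond 50 kb the shares were 11.4%, 15.8%, 11.9% and 23.3%, and among first-intron peaks 16.8%, 23.0%, 14.5% and 30.6%. A peak in all 4 lists was seen for 8.56%, 13.6%, 6.35% and 15.6% of the group, beside 5.52%, 8.05%, 4.25% and 10.9% of all peaks.

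Recurrence followed the score rank. In the best-scoring 10% of the lists, 76 of 89 near-gene intergenic peaks recurred in leucine-free KO cells (85.4%), 66 of 70 in complete-medium KO cells (94.3%), 92 of 113 in leucine-free WT cells (81.4%) and 52 of 53 in complete-medium WT cells (98.1%). All other peaks of that rank recurred in 77.6%, 83.3%, 77.5% and 95%. In the next 10% the shares of the group were 19.4%, 56.4%, 29.5% and 66.7%, beside 18.4%, 32.5%, 15.7% and 63.5% of other peaks. Below the middle rank of the lists they were 2.32%, 6.03%, 2.55% and 11.7%, beside 3.87%, 6.42%, 2.82% and 7.97%. Peaks with low scores were thus mostly seen once. The highest-scoring peaks with no partner in any other list were near Gtpbp4 in leucine-free KO cells (rank 144.5), Trhr2 in complete-medium KO cells (rank 181), Mir1971 in leucine-free WT cells (rank 183.5) and Rap2a in complete-medium WT cells (rank 148.5).

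**Figure D3:**
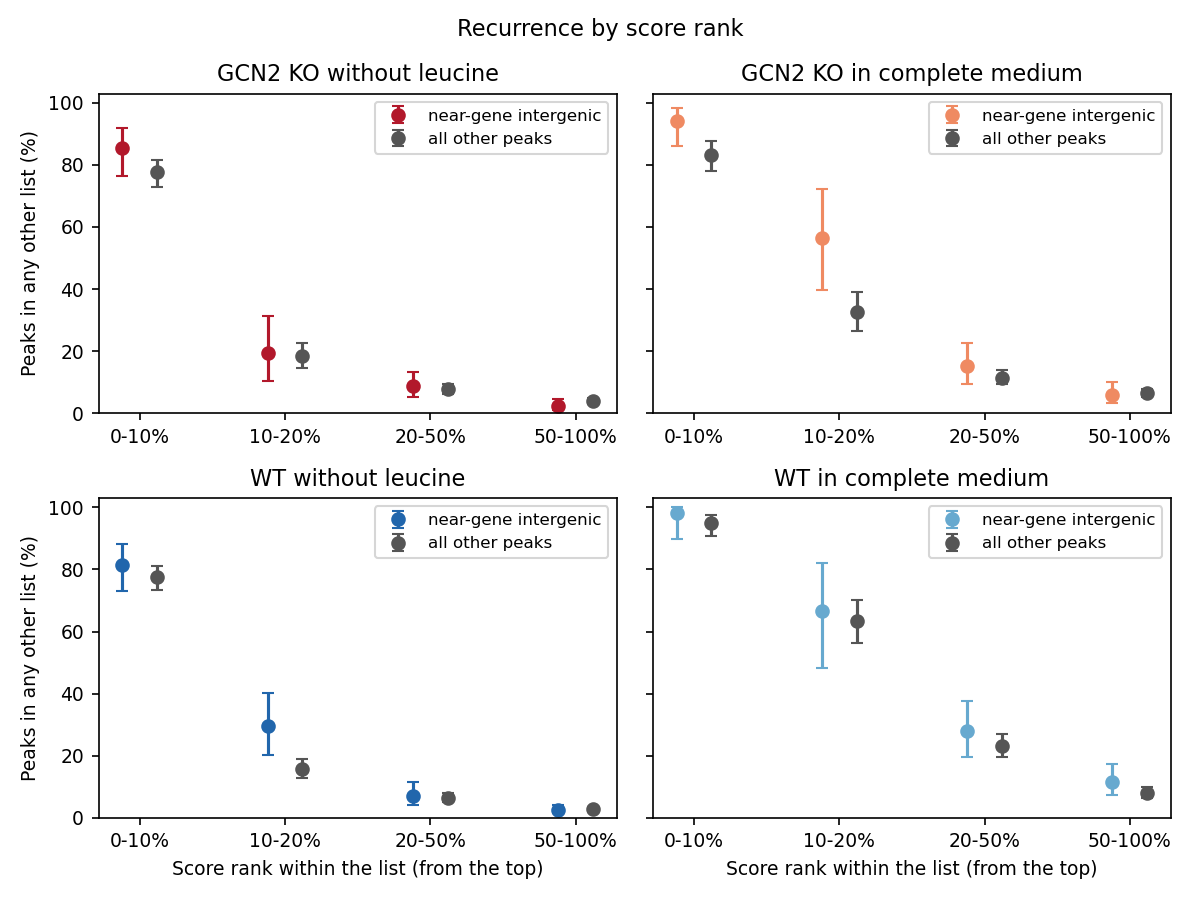
Share of peaks that overlap a peak of any other list (y axis, %) by score rank within the list (x axis, best-scoring part at the left), for near-gene intergenic peaks (coloured) and all other peaks of the list (grey), with exact 95% intervals. Recurrence is 81.4% to 98.1% for the group in the best-scoring 10% and 2.32% to 11.7% below the middle rank.

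Merging all overlapping peaks gave 2202 regions that held at least 1 near-gene intergenic peak. Of these, 65 had a peak in all 4 lists (2.95%, beside 256 of all 14390 regions, 1.78%). Another 42 were in 3 lists (1.91%, beside 1.45%), 81 in 2 lists (3.68%, beside 3.31%) and 2014 in 1 list (91.5%, beside 93.5% of all regions). The 65 sites belonged to 62 nearest genes, 50 were upstream and 15 downstream, and 30 lay within 10 kb. Their window starts differed between lists by a median of 49 bp and by 196 bp at most. In 57 of them every peak met the rule, and in the other 8 a window of some list was annotated to another class. Because the sites were selected for recurrence, their high ranks are given as a description.

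Sites near the glutathione genes Gclc and Gstp2 were among the best ranked. The Gclc site, at chr9:77750587-77750887 in leucine-free KO cells, lay 3774 to 3798 bp upstream of the TSS. Its ranks were 23 in leucine-free KO cells, 15 in complete-medium KO cells, 6.50 in leucine-free WT cells and 4 in complete-medium WT cells, with scores of 373, 453, 1046 and 1107. Both WT ranks were thus better than both KO ranks, in lists of different lengths. The Gstp2 site, at chr19:4045969-4046269 in the first of these lists, lay 3897 to 3915 bp upstream of that glutathione S-transferase gene and ranked 15, 11, 15 and 28.5. By RefSeq the TSS of its paralogue Gstp1 was 8224 bp away, so the site could belong to either gene by position.

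Heme and iron genes followed. Hmox1, the gene for heme oxygenase 1, which breaks heme down, had a pair of upstream sites in every list. The distal one, 9632 to 9657 bp from the TSS (chr8:75083825-75084125 in leucine-free KO cells), ranked 14, 14, 13.5 and 82.5, with scores of 508, 470, 635 and 213. The proximal one, 3894 to 3955 bp from the TSS (chr8:75089574-75089874), ranked 20.5, 64, 72 and 155.5. At both sites the list of complete-medium WT cells had the lowest placed rank although it is the shortest list. The Fth1 site, 1969 to 1999 bp upstream of the ferritin heavy chain gene (chr19:9978472-9978772), ranked 63, 19, 34 and 28.5. The Sqstm1 site, 2102 to 2119 bp upstream of the gene for the autophagy receptor p62 that binds KEAP1, ranked 72.5, 222, 71 and 116.

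Sites near Trp53cor1, Mdm2 and Cdkn2b were also in all lists. These genes belong to none of the gene lists used here. Cdkn2b is named by its score, since its peak was among the 8 best-scoring members in leucine-free KO cells. The site 3082 to 3098 bp upstream of Trp53cor1, a long non-coding RNA gene, ranked 44.5 in leucine-free KO cells, 94.5 in complete-medium KO cells, 18.5 in leucine-free WT cells and 10 in complete-medium WT cells. By RefSeq it lay 8771 bp from the TSS of Cdkn1a, which encodes the cell cycle inhibitor p21. The Mdm2 site, 7014 to 7069 bp upstream of the gene for the ligase that degrades p53, ranked 49, 58, 41 and 77. The Cdkn2b site, 40526 to 40627 bp upstream of the gene for the inhibitor p15, ranked 22, 54, 124.5 and 132. The KO and WT ranks did not overlap at Trp53cor1, where the WT ranks were better, or at Cdkn2b, where the KO ranks were better. This was not particular to these sites. WT ranks were also the better ones at Gclc, LOC100505025, Cyp1b1 and Ndufaf6. KO ranks were the better ones at Krt9, Cyb5b, Slc22a12 and the proximal Hmox1 site. With 1 library per condition this has no test.

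Other high-ranking sites had no listed tie to NRF2. The site near Ccl1, a chemokine gene, lay 4764 to 4786 bp downstream of the TSS (chr11:82174886-82175186 in leucine-free KO cells) and ranked 13, 8, 12 and 16, the narrowest range of the best-ranked sites. The site near Slc16a9, of the monocarboxylate transporter family, lay 42614 to 42648 bp downstream and ranked 10, 44.5, 29 and 14. The Krt9 site, 5583 to 5589 bp upstream of that keratin gene and 7198 bp from the TSS of Krt14 by RefSeq, ranked 6, 12, 90 and 30, and its starts differed by 6 bp across lists. The Cyb5b site, near the gene for outer mitochondrial membrane cytochrome b5, ranked 24.5, 17, 46.5 and 34. Sites in all lists were also ordered by rank percentage averaged over the lists. The remaining sites among the 15 best were near LOC100505025 (53, 66, 49 and 23), Mir5132 (47.5, 54, 92.5 and 21), Tmem219 (17, 112.5, 45 and 51), Cyp1b1, a cytochrome P450 gene (77, 68, 59 and 48.5), and Bhlhe41, a circadian repressor gene (66.5, 38, 175.5 and 43.5). By RefSeq the Mir5132 site lay 24453 bp from the TSS of Irak1, a kinase gene of interleukin-1 signalling.

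Not all sites of this set scored well everywhere. Ranks among the 65 sites ran from 6 to 3038 in leucine-free KO cells, 8 to 2282.5 in complete-medium KO cells, 6.50 to 4505 in leucine-free WT cells and 4 to 2333 in complete-medium WT cells, and 54, 49, 54 and 41 of them were in the best-scoring 10%. The Slc22a12 site ranked 168.5, 104.5, 480.5 and 1934, and the Ndufaf6 site 1956, 147.5, 73 and 146. Across the 65 sites the rank correlation between lists was 0.72 for the KO pair and 0.74 for the WT pair, and 0.54 to 0.67 between the genotypes (Spearman). These points share their selection for presence in all lists, and the coefficients are a description.

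**Figure D4:**
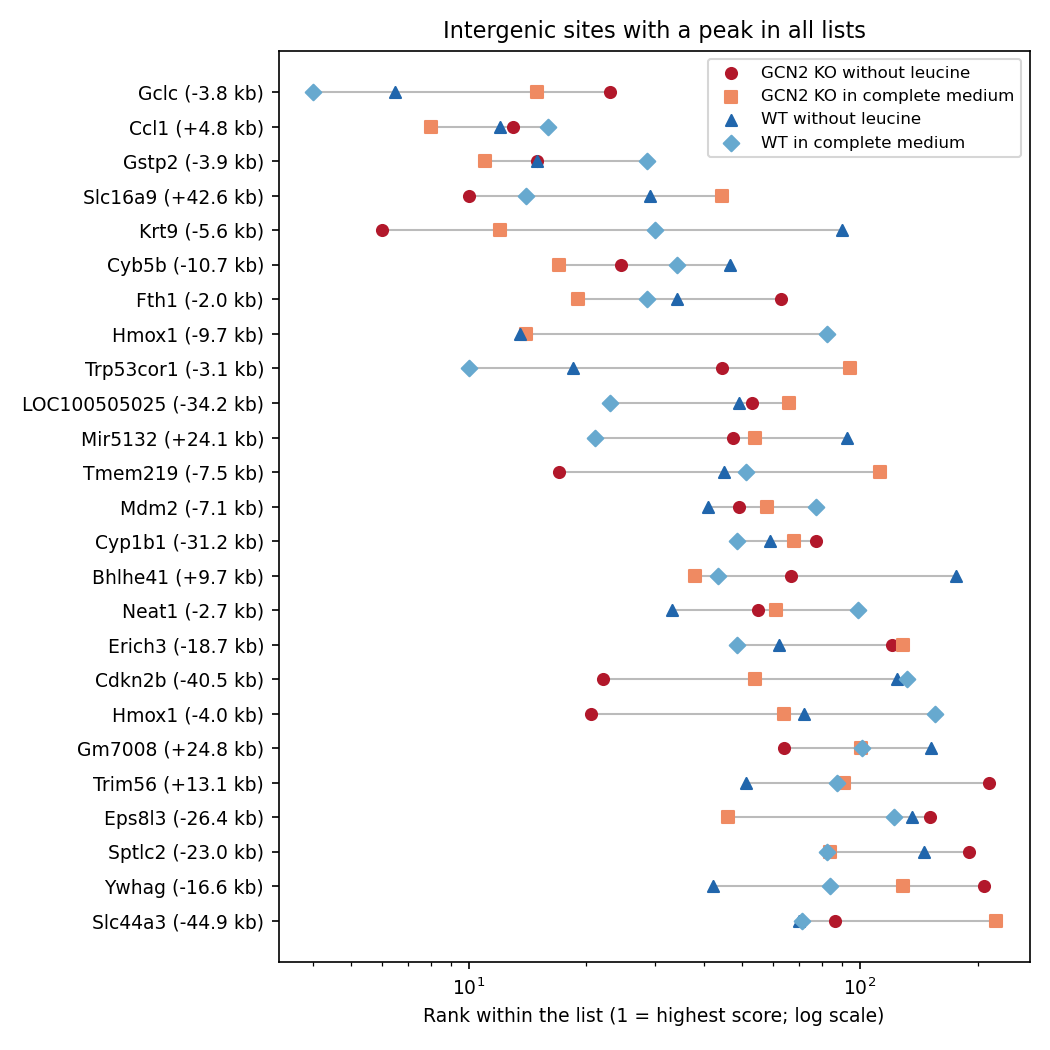
Rank within each list (x axis, log scale, 1 = highest score) of the 25 best-ranked near-gene intergenic sites found in all lists, labelled by nearest gene and distance to its TSS in complete-medium WT cells. Grey lines span the 4 ranks; the Ccl1 site stays between 8 and 16, while the Krt9 site spans 6 to 90.

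Regions found in exactly 2 lists were counted by the pair that held them. Both KO lists alone shared 21 regions (0.954% of the near-gene intergenic regions, beside 97 or 0.674% of regions of all classes) and both WT lists alone 30 (1.36%, beside 149 or 1.04%). Both lists without leucine alone shared 13 (0.590%, beside 97 or 0.674%) and both lists in complete medium alone shared 3 (0.136%, beside 23 or 0.160%). Over regions of all classes the KO pair and the pair without leucine thus shared the same number. With lists of equal length the counts were 16 for the KO pair, 26 for the WT pair, 10 for the pair without leucine and 4 for the pair in complete medium, and 61 regions were in all lists. Leucine-free KO cells and complete-medium WT cells alone shared 5 regions (0.227%, beside 44 or 0.306%). Complete-medium KO cells and leucine-free WT cells alone shared 9 (0.409%, beside 66 or 0.459%). Of the 42 regions in 3 lists, 17 lacked a peak in leucine-free KO cells and 13 in complete-medium KO cells. Another 3 lacked one in leucine-free WT cells and 9 in complete-medium WT cells. Over regions of all classes these numbers were 59, 72, 27 and 51 of 209. There the list most often missing was that of complete-medium KO cells. A missing peak lay below the authors' threshold and need not mean that binding was absent.

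**Figure D5:**
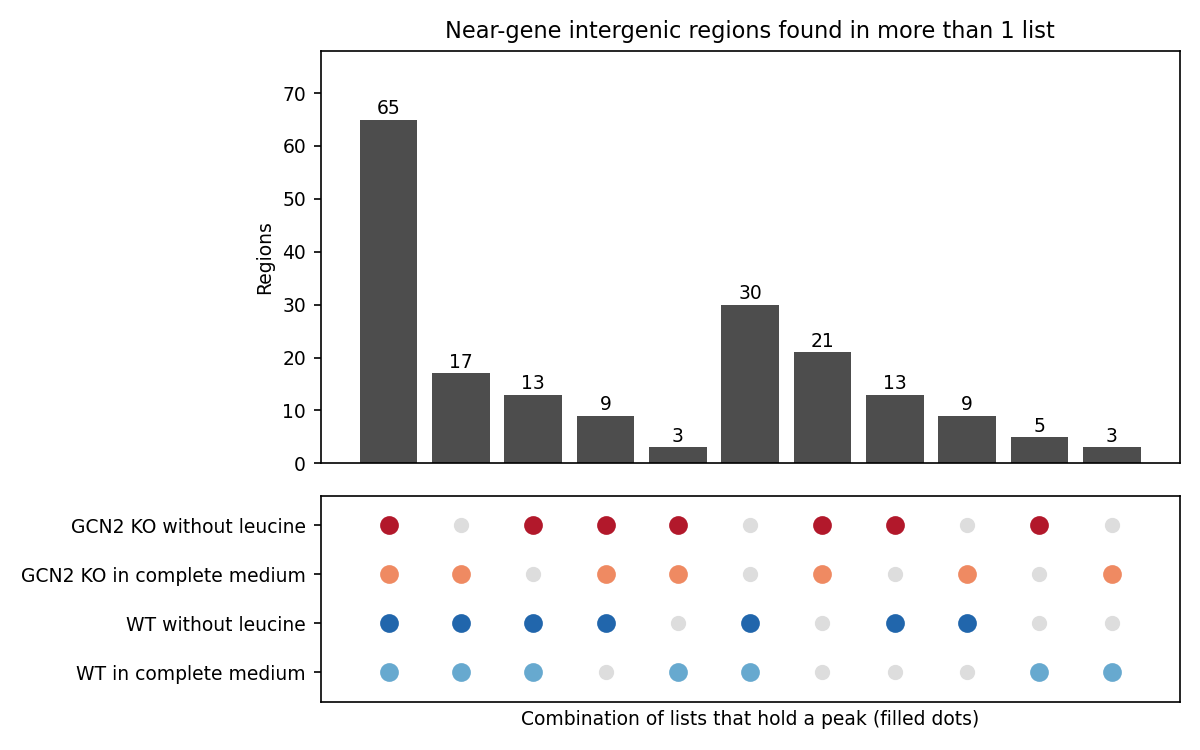
Number of merged near-gene intergenic regions (y axis) for each combination of lists with a peak, marked by filled dots below the bars. The combination of all 4 lists has 65 regions, the WT pair 30 and the KO pair 21.

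Leucine withdrawal in GCN2 KO cells was compared to see which sites were listed with and without leucine when GCN2 was missing. Without leucine, 89 of 713 peaks overlapped a peak of complete medium (12.5%, 10.1 to 15.1%, beside 9.33% of all peaks), and in complete medium 95 of 472 overlapped one without leucine (20.1%, 16.6 to 24.0%, beside 13.7%). With lists of equal length these shares were 22.6% and 25.1%. The lists shared 124 nearest genes, 18.6% of the genes without leucine and 27.8% of those in complete medium. Over all peaks they shared 1123, but the genes of each list were not counted there, so these percentages have no background share. The highest-scoring peaks found without leucine only were near the pseudogene Serpina4-ps1 (rank 94.5), Zfp36 (108), Prss55 (137.5), Gtpbp4 (144.5) and Trappc10 (181). Zfp36 encodes tristetraprolin, which destabilises cytokine mRNAs, and its site, with the Serpina4-ps1 and Prss55 sites, was also in both WT lists. Those found in complete medium only included sites near Vegfa (104.5), Trhr2 (181), F3 (193.5) and Pkm (193.5). Vegfa encodes an angiogenic growth factor, F3 tissue factor and Pkm a pyruvate kinase, and the Vegfa and Pkm sites were also in both WT lists.

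Leucine withdrawal in WT cells asked the same with GCN2 present. Without leucine, 119 of 960 peaks overlapped a peak of complete medium (12.4%, 10.4 to 14.6%, beside 8.96% of all peaks), and in complete medium 114 of 378 overlapped one without leucine (30.2%, 25.6 to 35.1%, beside 22.9%). With lists of equal length these shares were 29.1% and 27.8%. The lists shared 134 nearest genes, 15.2% of the genes without leucine and 37.3% of those in complete medium. Over all peaks they shared 1087, again without a background share for these percentages. Peaks found without leucine only were led by Mir1971 (rank 183.5), Rad23b (187.5), Pisd-ps3 (203), Traf3 (275.5) and Phldb2 (275.5). Rad23b encodes a ubiquitin-binding DNA repair protein and Traf3 an adaptor of immune receptors. Those found in complete medium only were near Rap2a (148.5), Slc14a2 (155.5), Pisd-ps3 (245), Mstn (303.5) and Cdh5 (303.5). Rap2a encodes a small GTPase, Slc14a2 a urea transporter, Mstn myostatin and Cdh5 the endothelial cadherin, and the Slc14a2 site was also in both KO lists.

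In complete medium, GCN2 KO cells were compared with WT cells. In GCN2 KO cells 86 of 472 peaks overlapped a WT peak (18.2%, 14.8 to 22.0%, beside 11.6% of all peaks), and in WT cells 80 of 378 overlapped a KO peak (21.2%, 17.2 to 25.6%, beside 15.6%). With lists of equal length these shares were 24.2% and 20.6%. The genotypes shared 90 nearest genes, 20.2% of the KO genes and 25.1% of the WT genes. Over all peaks they shared 739, again without a background share for these percentages. The highest-scoring peak found in KO cells only was near Gm13710, with rank 35 and a score of 267, and the same site had rank 273 in leucine-free KO cells and no peak in either WT list. It was followed by Adcy3, an adenylate cyclase gene (91), Dusp26, a phosphatase gene (118.5), Fads2, a fatty acid desaturase gene (128.5), and Sim2, a transcription factor gene (161). The Fads2 and Sim2 sites were likewise in both KO lists and in neither WT list. Peaks found in WT cells only were near Rap2a (148.5), Serpina4-ps1 (176), Prss55 (176), Myh9, a non-muscle myosin gene (176), and Kctd3 (201.5), of which the Myh9 and Kctd3 sites were in both WT lists and in neither KO list.

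The last comparison set leucine-free KO cells against leucine-free WT cells. In GCN2 KO cells 89 of 713 peaks overlapped a WT peak (12.5%, 10.1 to 15.1%, beside 10.4% of all peaks), and in WT cells 92 of 960 overlapped a KO peak (9.58%, 7.80 to 11.6%, beside 7.96%). The KO interval contains the share of all KO peaks and the WT interval that of all WT peaks. With lists of equal length the shares were 21.8% and 21.7%. The genotypes shared 170 nearest genes, 25.6% of the KO genes and 19.3% of the WT genes, again without a background share. For 92 of the 170 no near-gene intergenic peaks overlapped between the lists (54.1%, beside 71.5% of the 1606 genes shared over all peaks). In the other comparisons this held for 41 of 124 shared genes in GCN2 KO cells without and with leucine (33.1%, beside 63.3%), 28 of 134 in WT cells without and with leucine (20.9%, beside 53.0%) and 14 of 90 for the genotypes in complete medium (15.6%, beside 52.8%). Peaks found in KO cells only were led by Gtpbp4 (rank 144.5), Slc14a2 (171.5), 0610005C13Rik (185.5), Tex29 (218) and AI314180 (225.5). Peaks found in WT cells only reached higher ranks, at Vegfa (56.5), B330016D10Rik (56.5), Tmprss13 (148.5), Adam12 (154) and Abcc1 (165.5).

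The Vegfa, Gm13710 and Abcc1 sites show the per-list values behind these calls. The Vegfa site, about chr17:46070159-46070459, had no peak in leucine-free KO cells, rank 104.5 and a score of 141 in complete-medium KO cells, rank 56.5 and a score of 300 in leucine-free WT cells, and rank 122 and a score of 162 in complete-medium WT cells. It was therefore listed in 3 conditions and missing in 1. Abcc1, which encodes a glutathione-conjugate efflux pump, had a site at 8646 to 8699 bp upstream with no peak in leucine-free KO cells and ranks of 630.5, 165.5 and 1033.5 in the other lists. A further site at 10505 to 10566 bp upstream had ranks of 294.5, 401.5 and 3721.5 in leucine-free KO cells, complete-medium KO cells and leucine-free WT cells, and none in complete-medium WT cells. The 2 KO windows of this site were annotated to a repeat and are therefore not among the near-gene intergenic peaks.

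Gene lists placed a known NRF2 target beside a small part of the group. Of 60 NRF2 target genes, 6 were the nearest gene of a near-gene intergenic peak in leucine-free KO cells (10%, beside 2.5% of 21900 protein-coding genes), 8 in complete-medium KO cells (13.3%, beside 1.68%), 6 in leucine-free WT cells (10%, beside 3.42%) and 8 in complete-medium WT cells (13.3%, beside 1.40%). The genes Gclc, Gstp2, Hmox1, Fth1 and Sqstm1 were counted in every list. Abcc1 was counted in the 3 lists other than leucine-free KO cells. Mgst1 and Htatip2, Prdx6, and Gsta4 and Pgd were each counted in 1 list. Mgst1 and Gsta4 encode glutathione transferases, Prdx6 a peroxiredoxin and Pgd an enzyme that makes NADPH. Their ranks were 4260.5 for Mgst1 in leucine-free KO cells, 2282.5 for Htatip2 and 2504.5 for Prdx6 in complete-medium KO cells, and 1268 for Gsta4 and 510.5 for Pgd in complete-medium WT cells.

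The other gene lists are set beside the same protein-coding shares, 2.5% in leucine-free KO cells, 1.68% in complete-medium KO cells, 3.42% in leucine-free WT cells and 1.40% in complete-medium WT cells, and 7.06% for any list. The iron and heme list of 46 genes had 2 in leucine-free KO cells (4.35%), 2 in complete-medium KO cells (4.35%), 4 in leucine-free WT cells (8.70%) and 2 in complete-medium WT cells (4.35%), and 4 in any list (8.70%). Fth1 and Hmox1 were the genes in every list, and Alas1, which starts heme synthesis (rank 3013), and Spic, a macrophage transcription factor gene (rank 3989.5), were added in leucine-free WT cells. Of 44 amino acid response genes, Psat1, an enzyme gene of serine synthesis, was counted in leucine-free KO cells (2.27% of the list, 48616 bp from the TSS, rank 3957.5) and Slc7a1, an arginine and lysine transporter gene, in complete-medium WT cells (2.27%, rank 1688). None was counted in complete-medium KO cells or in leucine-free WT cells. The autophagy and lysosome list of 44 genes had 2, 2, 4 and 1 (4.55%, 4.55%, 9.09% and 2.27%), with Ctsd, a lysosomal protease gene, at a site ranked 1830.5, 256 and 346 in the lists other than complete-medium WT cells. The list of 25 genes of the AP-1, cap'n'collar and small Maf families had 1, 0, 1 and 1 (4% where 1 was counted), with Fosl2 and, in leucine-free WT cells, Maff. The Fosl2 site, 19226 to 19280 bp upstream, also had a peak in leucine-free WT cells, in a window that did not meet the rule. With 0 to 4 genes in a list, the shares of these gene lists rest on few genes.

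Immediate-early and cytokine feedback genes were nearest to 4, 3, 10 and 4 of 40 in the same order of lists (10%, 7.5%, 25% and 10%, beside the protein-coding shares given above). This list was drawn up with earlier results on some of its genes known. Arc, a neuronal activity gene, had a site in every list, with ranks of 467.5 in leucine-free KO cells, 630.5 in complete-medium KO cells, 865.5 in leucine-free WT cells and 196.5 in complete-medium WT cells. Zfp36 had ranks of 108, 183.5 and 270.5 in the lists other than complete-medium KO cells. The genes counted for leucine-free WT cells alone were Btg1, Dusp6, Ier5l, Maff, Socs3, Zfp36l1 and Zfp36l2, with ranks between 458 and 3989.5. Klf2 was counted in both WT lists, at different sites. With all lists shortened to 2336 peaks, the counts were 3, 3, 5 and 4. Cyr61, which encodes a matricellular protein, had a site 8647 to 8681 bp downstream in both KO lists (ranks 249 and 188) and another, 34654 bp upstream, in complete-medium WT cells.

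Genes of the fibroblast matrix, the cells' own type by the labels, were nearest to 1, 1, 2 and 0 of 50 in the same order of lists (2%, 2%, 4% and 0%, and 8% for any list, beside the shares above), with Thy1, Tnc, Col5a2 and Timp2. Of the lists of other cell types, macrophage genes gave 1, 0, 0 and 1 of 24 (4.17% where 1 was counted, and 8.33% for any list), with Siglec1 in leucine-free KO cells and Emr1 in complete-medium WT cells. Neuron and hepatocyte genes gave 0, 1, 1 and 2 of 30 (0%, 3.33%, 3.33% and 6.67%, and 6.67% for any list), with Snap25, a synaptic gene, at a site ranked 428.5, 424 and 107.5 in the lists other than leucine-free KO cells, and Gad2. A nearest gene does not show which cell type the chromatin came from.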

How the data were processed

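The data are 4 NRF2 ChIP-seq peak lists, 1 library per condition, sequenced as 50 bp single reads per the labels' protocols. BWA 0.7.12, MACS2 2.1.0, HOMER 4.7 and the mm10 build are named in the submitters' processing notes, without settings. The lists were called per library and annotated with HOMER, per the file headers. The authors deposited for each 300 bp window a whole-number score (lowest value 13), a GC and CpG fraction from 0 to 1 and a distance to the nearest TSS. Read depth is unknown, and no file of the input libraries was used here.

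Members were found by annotation class, distance and absence of the repeat separator in the detailed annotation. Ranks were computed within each list, overlaps needed at least 1 bp, and intervals are exact Clopper-Pearson at 95%. Gene symbols of 9 lists with 363 entries, all matched, were compared with the nearest gene. Neighbouring genes and promoter sequences are from RefSeq (GRCm38.p6). Overlap counting and the selection rule were tested on simulated windows. Named genes were the 15 best among sites in all lists by rank percentage averaged over the lists, and the 8 best-scoring members per list. Further ones were the 5 best-scoring members without overlap per comparison, members of the gene lists and genes with 3 or more members. Some sites were singled out after their values were seen. Some sites and sequences that these rules select are not reported here. The members and lists were chosen with earlier results of these data known. Motifs in the windows themselves were not searched, since no genome was used here. Python 3.11.15, pandas 2.3.3, NumPy 2.4.6, SciPy 1.17.1 and Matplotlib 3.10.9 were used. Alternatives were a limit of 25 kb, repeats kept, the higher-scoring 50%, equal list lengths, a reciprocal overlap of 50%, windows widened by 500 bp and omission of the unplaced contig.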

Additional observations from a re-analysis of the deposited data

Results flagged for a closer look

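Several of the measures compared differed in opposite directions with leucine withdrawal in the 2 genotypes, and others differed in the same direction. The share of near-gene intergenic peaks among all peaks differed by 0.473 percentage points in GCN2 KO cells (without leucine minus complete medium) and by -0.128 in WT cells. The share of these peaks above the middle rank of their list differed by 0.765 points in GCN2 KO cells and by -7.45 in WT cells. That opposition depends on tied scores, since 342, 230, 913 and 147 peaks shared the score at the middle of the lists of leucine-free KO, complete-medium KO, leucine-free WT and complete-medium WT cells. With the tied peaks split at 50% of the list the differences were -1.84 points in GCN2 KO cells and -2.33 in WT cells, in the same direction. The share with a protein-coding nearest gene differed by -0.365 points in GCN2 KO cells and by 1.15 in WT cells. The median GC content differed by -0.332 points in GCN2 KO cells and by 0.332 in WT cells, and the median distance by 1482 bp in GCN2 KO cells and by -1096 bp in WT cells. Among the measures with the same direction, the upstream share differed by -2.75 points in GCN2 KO cells and by -1.66 in WT cells. The share in the best-scoring 10% differed by -2.35 points in GCN2 KO cells and by -2.25 in WT cells. Recurrence differed by -9.72 points in GCN2 KO cells and by -17.8 in WT cells. With 1 library per condition, none of these differences between genotypes was tested.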

How the results depend on the processing

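Of 108 alternative values, 71 kept within the limits set for them and 37 moved. The 71 included every value under a reciprocal overlap of 50%, under windows widened by 500 bp and without the unplaced contig. Reversals of order were not scored, but some occurred with lists shortened to 2336 peaks. Overlap in WT cells was 12.4% without leucine and 30.2% in complete medium, and became 29.1% and 27.8%. In complete medium it was 18.2% in KO and 21.2% in WT cells, and became 24.2% and 20.6%. The other comparisons kept their order. Splitting tied scores also changed the sign of a difference in KO cells, as given above. With lists shortened to 2336 peaks, recurrence was 28.3% in leucine-free KO cells, 32.3% in complete-medium KO cells and 34.8% in leucine-free WT cells. Overlap with the compared list was then 29.1% for leucine-free WT cells, 22.6% for leucine-free KO cells and 25.1% for complete-medium KO cells against each other, 24.2% for complete-medium KO cells against WT, and 21.8% and 21.7% for leucine-free KO and WT cells. Nearest genes were 350 in leucine-free KO cells and 361 in leucine-free WT cells, and 5 immediate-early genes were left in leucine-free WT cells. In the higher-scoring 50% the lists held 363, 249, 483 and 199 of the peaks, with recurrence of 27.8%, 42.2%, 26.3% and 50.3%, in the order GCN2 KO without leucine, GCN2 KO in complete medium, WT without leucine, WT in complete medium. With a limit of 25 kb they held 454, 306, 623 and 229, upstream shares were 74.7%, 77.1%, 77.8% and 81.7%, and nearest genes were 432, 295 and 221 in the lists other than WT without leucine. With repeats kept they held 1152, 729 and 570 in those same lists, and the median GC content was 51.5% in the 3 lists other than WT in complete medium. The cause was not tested, other than that shorter lists, a narrower limit and kept repeats change the numbers by construction. Some alternatives were chosen after seeing the data: those of the numbers of nearest genes, of the gene lists, of the sites and regions by lists, the splitting of tied scores, and the omission of the contig. The planned motif share in the windows was not run. No paired analysis was possible because each condition has 1 library. Unknown depth, 1 library per condition and the authors' threshold limit every statement on absence of a peak.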

Other observations

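Some nearest genes of near-gene intergenic sites in exactly 2 lists are named here, and no shared function was tested. The 21 regions of the KO pair included sites near Cdkn2a, which encodes cell cycle inhibitors, Rdh10, a retinol dehydrogenase gene, Hhip, an antagonist of Hedgehog signalling, and Dyrk2, a kinase gene. The 30 regions of the WT pair included sites near Pparg, the nuclear receptor of fat cell formation, Lgals3, a galectin gene, Psap, a lysosomal activator gene, Ass1, an enzyme gene of arginine synthesis, and Pdgfa, a growth factor gene. The 13 regions of the pair without leucine included sites near Iqgap1, a scaffold gene, and Cox7a2l, a gene of respiratory chain assembly. Several of these sites lay close to the 50 kb limit. They were 47537 to 47599 bp from the TSS at Cdkn2a, 49141 to 49332 bp at Rdh10, 47807 to 47979 bp at Hhip and 47792 to 47803 bp at Pparg. The closest was the Dyrk2 site, at 4201 to 4351 bp. By rank percentage averaged over their lists, the Rdh10 site was the lowest placed of the 81 sites in 2 lists. The Hhip, Pdgfa and Cox7a2l sites were also among the lowest, while the Lgals3 site was among the higher placed. All genes named here were chosen after their values were seen, and no list was tested.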
